A study of Mus musculus with 18 samples.

Results

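Vcp and 8 of its cofactors were followed at the mRNA level in mouse fibroblasts given a proteasome inhibitor. Vcp encodes p97 (also called VCP), and the cofactors were Ufd1l (now named Ufd1), Nploc4, Nsfl1c, Faf1, Faf2, Ubxn4, Ubxn6 and Plaa. They were taken by gene symbol from a list of p97 and its cofactors, with no threshold on a measured value, and make up 9 of the 23420 genes in the table of read counts. That list was drawn up with earlier results of these data known. The cells were NIH-3T3, an established line of immortalized mouse embryonic fibroblasts, in a wild-type (WT) form and in a line without Nrf1 that was made with CRISPR/Cas9 (Nrf1-KO). Each line was given the vehicle DMSO or the proteasome inhibitor carfilzomib (CFZ) at 200 nM, for 6 h or for 24 h, with 3 biological replicates in each of the 6 groups and 18 libraries in all. CFZ binds irreversibly to the proteasome. The time in DMSO is not given in the sources used here, and the effect of the genotype rests on a single WT and a single knockout line. All groups shared the same culture medium and the same parental line.

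p97 is an ATPase that unfolds proteins tagged with ubiquitin and pulls them out of membranes and complexes, so that the proteasome can degrade them. What it works on is set by cofactors, many of which bind it through a UBX domain. In degradation from the endoplasmic reticulum (ER), the heterodimer of UFD1 and NPL4 takes up the ubiquitin chain and membrane-bound UBX proteins hold p97 at the ER. Nrf1, encoded by Nfe2l1, is itself an ER protein that p97 is known to extract, and it is a transcription factor that induces proteasome genes when the proteasome is inhibited. The comparisons below address how the mRNAs of the p97 system responded to CFZ and how far that response differed in cells without Nrf1.

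The libraries held between 8333148 and 23917081 counted reads (median 14419832), and all 18 libraries correlated best with a library of their own group. Every member passed the filter on low counts, with 428 (Ubxn6) to 21062 (Vcp) reads in a library. Nfe2l1, the gene knocked out, was at 437.3 to 456.9 CPM (reads of a gene scaled to a common library size) in the 3 WT libraries in DMSO and at 174.3 to 184.6 in the 3 Nrf1-KO libraries. Its mRNA was thus lower in the knockout but still present, and at 6 h of CFZ it was at 413.5 to 427 CPM in Nrf1-KO cells. The position of the edit is not given in the sources used here, so the mRNA level does not show whether the protein was lost. All 10 fibroblast marker genes were above 1 CPM in each group, with marker levels scaled by library size alone. Their summed level was lower at 24 h of CFZ in both lines. It was between 39800 and 42350 CPM in WT cells in DMSO, between 31230 and 33260 at 6 h and between 8996 and 9363 at 24 h, and in Nrf1-KO cells between 32510 and 39030, between 31840 and 35350 and between 11310 and 13450 CPM. Markers of other cell types were far lower, at a summed level of at most 14.13 CPM for each list in any library, but they also moved. The 5 epithelial markers summed to between 6.173 and 6.691 CPM in WT and between 11.76 and 14.13 in Nrf1-KO cells in DMSO, and to at most 0.7944 at 24 h. Epcam, Krt18 and Cldn4 were at 0 in all libraries. The 4 endothelial markers summed to at most 1.161 CPM in DMSO and at 6 h and to between 3.277 and 4.122 at 24 h. The 5 immune markers summed to at most 2.322 CPM in DMSO and at 6 h and to between 2.681 and 3.726 in WT and between 5.321 and 5.654 in Nrf1-KO cells at 24 h, with Cd3e at 0 in all libraries and Ptprc at 0 in all WT libraries. The epithelial sum was thus lower and the endothelial and immune sums higher at 24 h. Of the epithelial markers only Cdh1 passed the filter on low counts. Its log2 fold change at 24 h was -3.54 in WT and -4.87 in Nrf1-KO cells. Of the endothelial and immune markers that passed, Cdh5 (3.67 and 4.22) and Cd68 (2.26 and 2.55) rose most. Tek changed less (0.85 and 0.98), as did Ptprc in Nrf1-KO cells (0.32). The part of these marker changes in the results below was not tested.

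Positions are given on GRCm38 from the GENCODE M21 annotation. Vcp lies at chr4:42979963-43000507 on the minus strand, and its cofactors Faf1 (chr4:109676588-109963960, plus strand) and Plaa (chr4:94567514-94603244, minus strand) lie on the same chromosome. Ufd1l is at chr16:18811779-18835261 on the plus strand and Nploc4 at chr11:120380370-120437708 on the minus strand. Nsfl1c is at chr2:151494182-151511414, Faf2 at chr13:54621784-54664063 and Ubxn4 at chr1:128243964-128279378, all on the plus strand. Ubxn6 is at chr17:56067045-56075028 on the minus strand, and 81.8% of its exonic bases overlap Chaf1a on the opposite strand. Whether reads were counted by strand is not given in the sources used here, so the value of Ubxn6 may hold Chaf1a reads. For Vcp, 31.2% of the read-length stretches of its transcripts are identical in the pseudogene Vcp-rs, and 7.26% of its exonic bases overlap 1700022I11Rik on the other strand. For Ufd1l, 4.82% of exonic bases overlap Cdc45 on the other strand, and 4.21% of the stretches of Nsfl1c are shared with Gm5555. No such overlap or sharing was found for Nploc4, Faf1, Faf2, Ubxn4 or Plaa.

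As the members responded to CFZ to a different extent in cells without Nrf1, their promoters were searched for the antioxidant response element, the sequence that Nrf1 is known to bind with small Maf proteins. RefSeq windows (GRCm38.p6) from 250 bases before to 50 bases after the transcription start were found for 9 of 9 members, 11 windows in all since Ubxn6 has 3. The core TGACNNNGC, on either strand, was present in 4 of 9 members and in 12.4% of 32851 promoter windows. Here and below, a member was counted if any of its windows held the letters, while the share is of single windows. A second pattern of the same length with fewer free letters, TGANTCAGC, was in 0 of 9 members and in 1.19% of all windows. The windows of Vcp, Ubxn4, Plaa and Faf2 are shown because they hold the core. Those genes responded less without Nrf1, but so did Ufd1l, Nploc4, Nsfl1c and Faf1, whose windows hold no core. Among the members, the response of Nploc4 differed most between the lines at 6 h and that of Nsfl1c at 24 h. The window of Nploc4 is shown as one without the core. The windows shown are chr4:43000458-43000757 (minus strand), chr1:128243887-128244186 (plus strand), chr4:94603198-94603497 (minus strand), chr13:54621534-54621833 (plus strand) and chr11:120437651-120437950 (minus strand), each printed 5′ to 3′ along the gene with the core in capitals.
Vcp: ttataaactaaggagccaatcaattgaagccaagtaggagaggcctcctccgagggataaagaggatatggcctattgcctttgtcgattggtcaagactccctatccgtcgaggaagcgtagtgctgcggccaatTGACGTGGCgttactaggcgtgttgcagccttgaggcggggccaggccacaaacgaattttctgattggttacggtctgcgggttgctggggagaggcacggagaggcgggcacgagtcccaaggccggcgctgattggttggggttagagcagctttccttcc
Ubxn4: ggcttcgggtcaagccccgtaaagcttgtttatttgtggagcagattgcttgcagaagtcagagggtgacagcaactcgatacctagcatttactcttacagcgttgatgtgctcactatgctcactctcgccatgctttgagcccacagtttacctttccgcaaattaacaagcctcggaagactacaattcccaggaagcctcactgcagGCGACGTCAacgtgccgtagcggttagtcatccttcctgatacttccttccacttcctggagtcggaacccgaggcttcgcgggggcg
Plaa: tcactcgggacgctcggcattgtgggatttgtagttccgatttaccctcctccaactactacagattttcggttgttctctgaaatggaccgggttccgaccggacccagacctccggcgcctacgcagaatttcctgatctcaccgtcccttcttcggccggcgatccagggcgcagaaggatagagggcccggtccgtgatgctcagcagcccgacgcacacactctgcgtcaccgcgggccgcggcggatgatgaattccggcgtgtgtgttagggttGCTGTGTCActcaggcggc
Faf2: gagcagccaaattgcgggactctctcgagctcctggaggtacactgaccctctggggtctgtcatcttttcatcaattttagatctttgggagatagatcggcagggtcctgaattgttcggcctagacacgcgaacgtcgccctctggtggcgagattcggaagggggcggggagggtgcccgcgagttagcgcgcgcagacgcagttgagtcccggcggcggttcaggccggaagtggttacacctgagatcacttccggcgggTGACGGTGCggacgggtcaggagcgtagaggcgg
Nploc4: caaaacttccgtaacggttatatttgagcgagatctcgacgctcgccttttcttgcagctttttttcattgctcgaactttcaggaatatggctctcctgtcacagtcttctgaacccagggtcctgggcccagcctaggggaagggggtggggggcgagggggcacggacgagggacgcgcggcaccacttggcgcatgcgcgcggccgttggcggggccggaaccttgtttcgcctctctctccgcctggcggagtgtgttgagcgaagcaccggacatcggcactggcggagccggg
The core starts at position -114 in Vcp, counted from the transcription start as 0, at -38 in Ubxn4 and at 31 in Plaa, and it is on the opposite strand in Ubxn4 and Plaa. In Faf2 the core starts at position 16. The Vcp window also holds CCAAT, the letters that the factor NF-Y is known to bind, 5 times counted over both strands. CCAAT was in the windows of 3 of 9 members (Vcp, Nsfl1c and Ubxn6) and in 37.4% of all windows. The letters GAANNTTC, part of the heat shock element, were in Vcp and Nploc4 and in 7.86% of all windows. A match gives only the letters in a window. Binding was not measured here.

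In WT cells, the members rose in response to CFZ. At 6 h, 8 of 9 were higher than in DMSO and 0 were lower, where 35.6% of the 11762 genes tested were higher, 36.2% were lower and 71.9% were called in either direction (edgeR quasi-likelihood test, adjusted p under 0.05). Under scaling by upper quartile or by library size alone the split was 8 higher and 1 lower (Ubxn6). At 24 h, 9 of 9 were higher, against 43.2% of all genes higher, 40.5% lower and 83.8% called in either direction. The median log2 fold change of the members was 1.29 at 6 h and 1.17 at 24 h, and that of all genes was -0.02 and 0.02. The same DMSO libraries serve both times. As RNA from whole cultures was sequenced, fewer cells with an mRNA and less of it per cell cannot be told apart.

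In Nrf1-KO cells, the members also rose, by less. At 6 h, 7 of 9 were higher and 0 were lower, against 34.5% of all genes higher, 35.0% lower and 69.5% called in either direction. Vcp was the least certain of these, and under RLE, upper-quartile or library-size scaling the split was 6 higher and 1 lower (Ubxn6). At 24 h, 8 of 9 were higher and Faf2 was lower, against 44.4% of all genes higher, 41.1% lower and 85.5% called. The median log2 fold change of the members was 0.43 at 6 h and 0.58 at 24 h. The difference of the responses, that of Nrf1-KO minus that of WT, was tested as the interaction of line and CFZ. It was called lower for 8 of 9 members at 6 h, with 18.4% of all genes called lower, 19.8% higher and 38.3% in either direction. At 24 h it was also called lower for 8 of 9, with 30.0% of all genes lower, 29.7% higher and 59.8% in either direction. The value of Ubxn6 was negative at both times but not called. The median interaction of the members was -0.81 at 6 h and -0.72 at 24 h on the log2 scale, where that of all genes was 0.02 and 0.00.

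**Figure D1:**
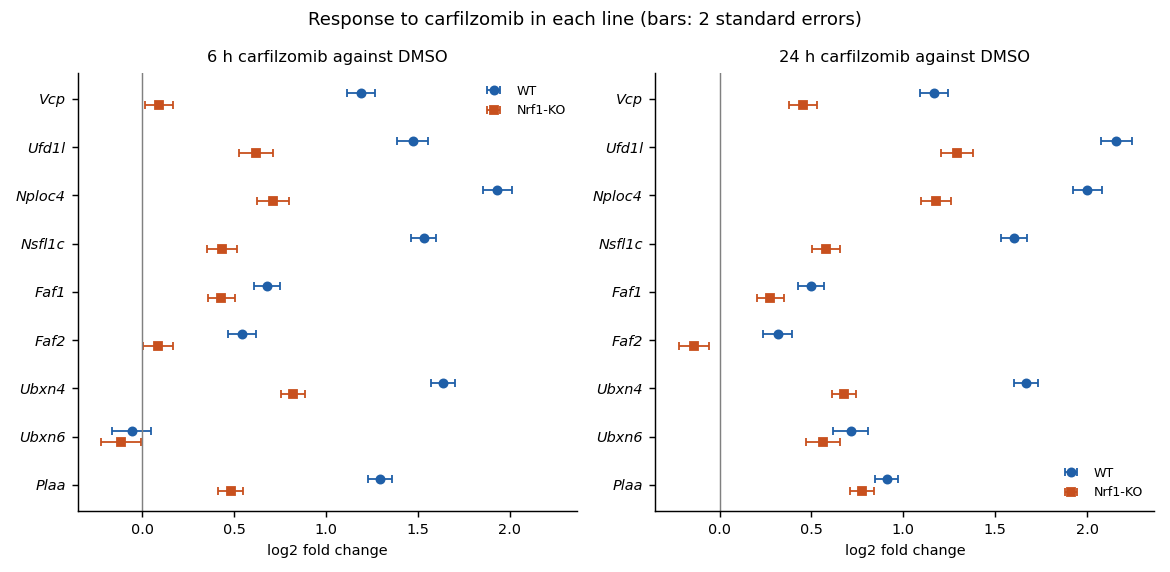
Log2 fold change of each member in CFZ against DMSO at 6 h (left) and 24 h (right), in WT (circles) and Nrf1-KO (squares) cells, with bars of 2 standard errors from the fit to 3 libraries per group. Nploc4 had the highest WT value at 6 h (1.93) and Ufd1l at 24 h (2.16), and each Nrf1-KO value lies to the left of the WT value of its gene.

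Vcp itself was at 565.5, 564.9 and 568.3 CPM in the WT libraries in DMSO. At 6 h of CFZ it was at 1299, 1285 and 1293 CPM, and at 24 h at 1294, 1263 and 1258 CPM. The mRNA of the ATPase thus more than doubled by 6 h, with no overlap with DMSO, and the groups at 6 h and 24 h overlapped. The log2 fold change was 1.19 (SE 0.038, adjusted p = 6.63e-23) at 6 h and 1.17 (SE 0.038, adjusted p = 3.06e-23) at 24 h. In Nrf1-KO cells Vcp was at 441.4, 413.9 and 397.6 CPM in DMSO, at 454.8, 450.1 and 426.7 at 6 h and at 598.9, 575.1 and 538.8 at 24 h. The knockout libraries at 6 h overlapped those in DMSO, and those at 24 h lay above both and overlapped WT cells in DMSO. The log2 fold change at 6 h was 0.09 (SE 0.039, adjusted p = 0.0389). Its adjusted p ran from 0.00494 to 0.72 over 14 alternatives, and the call was lost with DESeq2 (adjusted p = 0.113), with each of the other scalings and filters tried, and without DMSO replicate 2 (adjusted p = 0.0998) or 3 (0.267) or 6 h replicate 1 (0.145) or 2 (0.111). With library size alone the value was -0.021. At 24 h it was 0.45 (SE 0.038, adjusted p = 1.71e-12). The interaction was -1.10 (SE 0.054, adjusted p = 6.6e-17) at 6 h and -0.72 (SE 0.054, adjusted p = 5.77e-13) at 24 h.

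**Figure D2:**
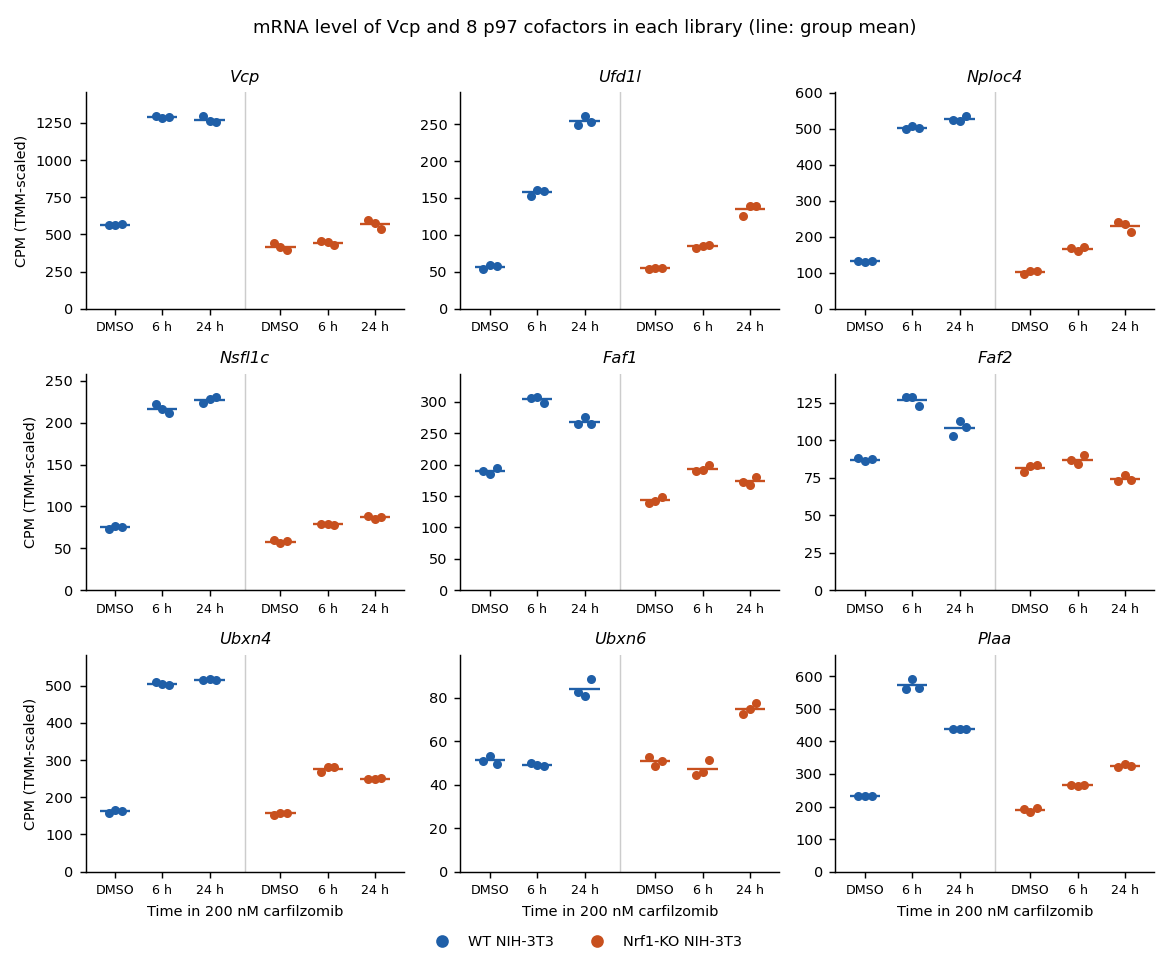
Level of each member in each of the 18 libraries, in CPM with TMM scaling, by time in 200 nM CFZ, with WT in blue on the left of each panel, Nrf1-KO in orange on the right, 1 point per library and a line at the mean of each group of 3. Vcp in WT cells lies between 1258 and 1299 CPM in all 6 CFZ libraries, and in Nrf1-KO cells it does not pass 598.9 CPM.

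Nploc4 and Ufd1l encode NPL4 and UFD1, which form the heterodimer that feeds ubiquitinated proteins into p97. Nploc4 was at 132.3, 129.8 and 132.7 CPM in WT cells in DMSO, at 498.2, 505.9 and 501.1 at 6 h and at 523.5, 521.2 and 535.8 at 24 h. The Nrf1-KO libraries were at 96.59, 103.8 and 104.5 CPM in DMSO, at 167.9, 161 and 171.8 at 6 h and at 241.8, 236.2 and 213.5 at 24 h. The 6 groups did not overlap, and all CFZ libraries of Nrf1-KO cells lay below those of WT cells. The rise was 3.81-fold at 6 h and 4.0-fold at 24 h in WT cells, and 1.64-fold and 2.26-fold in Nrf1-KO cells, and all of these passed the test. The interaction was -1.22 (SE 0.057, adjusted p = 2.31e-17) at 6 h, the most negative of the 9 members, and -0.82 (SE 0.056, adjusted p = 6.17e-14) at 24 h.

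Ufd1l differed from Nploc4 in that it rose further between 6 h and 24 h in WT cells. It was at 54.37, 59.29 and 57.54 CPM in WT cells in DMSO, at 152.9, 161.4 and 159.4 at 6 h and at 248.4, 261.4 and 253.4 at 24 h. Without Nrf1 the level was 53.98, 55.63 and 55.33 CPM in DMSO, at 82.4, 84.87 and 86.69 at 6 h and at 125.4, 139.5 and 139 at 24 h. The lines overlapped in DMSO and separated in CFZ, and each line had a higher level at each later time. From 6 h to 24 h the log2 change was 0.69 (SE 0.038, adjusted p = 9.98e-17) in WT and 0.67 (SE 0.043, adjusted p = 3.26e-15) in Nrf1-KO cells. The interaction was -0.85 (SE 0.064) at 6 h and -0.87 (SE 0.060) at 24 h, both past the threshold. Cdc45, which overlaps a small part of Ufd1l on the other strand, was at 31.49, 41.65 and 42.58 CPM on average in WT cells (DMSO, then 6 h, then 24 h) and at 41.43, 43.17 and 24.64 CPM in Nrf1-KO cells, and its part in the Ufd1l value was not tested.

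Nsfl1c encodes p47, a UBX cofactor of p97 known for membrane fusion at the Golgi. It was at 72.52, 76.65 and 75.84 CPM in WT cells in DMSO, at 221.7, 216.3 and 211.6 at 6 h and at 223.2, 228.1 and 230.5 at 24 h. In Nrf1-KO cells it was at 59.62, 56.08 and 58.68 CPM in DMSO, at 79.17, 78.85 and 77.58 at 6 h and at 88.52, 85.49 and 87.4 at 24 h. The WT level rose 2.89-fold at 6 h and 3.04-fold at 24 h, and the Nrf1-KO libraries in CFZ lay above both lines in DMSO and below all WT libraries in CFZ. The log2 fold change at 24 h was 1.60 (SE 0.035) in WT and 0.58 (SE 0.038) in Nrf1-KO cells. The interaction was -1.10 (SE 0.053, adjusted p = 5.16e-17) at 6 h and -1.02 (SE 0.052, adjusted p = 4.51e-17) at 24 h, the most negative of the 9 members at 24 h. The small WT difference between 24 h and 6 h, 0.07 on the log2 scale (SE 0.032, adjusted p = 0.0462), was called in 4 of 14 alternatives, and when single libraries were left out only without 24 h replicate 1.

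Plaa encodes a ubiquitin-binding cofactor, the counterpart of yeast Doa1, that is known in the sorting of ubiquitinated proteins to lysosomes. It was at 233.5, 233.4 and 233.8 CPM in WT cells in DMSO, at 561, 593.2 and 563.6 at 6 h and at 438, 439.3 and 438.5 at 24 h. In Nrf1-KO cells it was at 192.7, 182.6 and 195.1 CPM in DMSO, at 267.2, 264.4 and 264.9 at 6 h and at 322.6, 329.7 and 323.8 at 24 h. The WT level peaked at 6 h and the Nrf1-KO level was highest at 24 h, with no overlap between the groups. From 6 h to 24 h Plaa fell by 0.38 on the log2 scale (SE 0.031, adjusted p = 1.76e-12) in WT cells and rose by 0.29 (SE 0.033, adjusted p = 1.62e-09) in Nrf1-KO cells. The interaction was -0.81 (SE 0.046, adjusted p = 2.63e-15) at 6 h and -0.14 (SE 0.046, adjusted p = 0.0116) at 24 h.

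Ubxn4, Faf2 and Faf1 are UBX proteins. Ubxn4 (also called erasin) and Faf2 are anchored in the ER membrane and act in degradation from the ER, and Faf1 binds ubiquitin together with p97, UFD1 and NPL4. Ubxn4 was at 157.7, 166.9 and 163.1 CPM in WT cells in DMSO, at 509.4, 505.1 and 501.2 at 6 h and at 515.3, 519 and 513.9 at 24 h. The Nrf1-KO libraries were at 153, 158.6 and 157.4 CPM in DMSO, at 268.6, 280.5 and 280.9 at 6 h and at 248.4, 249.8 and 251.5 at 24 h. The lines overlapped in DMSO and did not overlap in CFZ, and the Nrf1-KO level was higher at 6 h than at 24 h. The rise was 3.11-fold at 6 h and 3.18-fold at 24 h in WT cells, and 1.77-fold and 1.6-fold in Nrf1-KO cells. The interaction was -0.81 (SE 0.046) at 6 h and -0.99 (SE 0.045, adjusted p = 3.76e-18) at 24 h.

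Faf1 and Faf2 moved less. Faf1 was between 185.2 and 195.1 CPM in WT cells in DMSO, between 298.8 and 307.7 at 6 h and between 264.4 and 275.5 at 24 h. Without Nrf1 the level was between 138.9 and 147.8 CPM in DMSO, between 189.5 and 199.3 at 6 h and between 167.8 and 180.6 at 24 h. Both lines were highest at 6 h, and the Nrf1-KO libraries lay below the WT libraries in each treatment. The interaction of Faf1 was -0.25 (SE 0.050, adjusted p = 0.000178) at 6 h and -0.22 (SE 0.050, adjusted p = 0.000315) at 24 h. Faf2 was between 85.92 and 87.79 CPM in WT cells in DMSO, between 122.8 and 128.7 at 6 h and between 102.8 and 112.7 at 24 h, and in Nrf1-KO cells between 79 and 83.17, between 83.94 and 90.29 and between 72.67 and 76.78. It was the only member that was lower in CFZ than in DMSO past the threshold, at 24 h in Nrf1-KO cells, by a log2 value of -0.14 (SE 0.040, adjusted p = 0.00231). At 6 h in Nrf1-KO cells its log2 fold change was 0.09 (adjusted p = 0.0653), and it was called without 6 h replicate 2 (0.11, adjusted p = 0.0361). The interaction of Faf2 was -0.46 (SE 0.057) at 6 h and -0.46 (SE 0.056) at 24 h, with adjusted p-values of 9.83e-08 and 3.01e-08.

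Ubxn6, a cofactor that works with PLAA at endosomes and lysosomes, followed another course. It was between 49.66 and 53.26 CPM in WT cells in DMSO, between 48.65 and 49.9 at 6 h and between 80.59 and 88.82 at 24 h. In Nrf1-KO cells it was between 48.38 and 52.93 CPM in DMSO, between 44.39 and 51.32 at 6 h and between 72.39 and 77.38 at 24 h. The DMSO and 6 h libraries overlapped in both lines, and the 24 h libraries lay above them. At 24 h the log2 fold change was 0.71 (SE 0.048, adjusted p = 6.17e-15) in WT and 0.56 (SE 0.047, adjusted p = 1.57e-12) in Nrf1-KO cells. At 6 h in Nrf1-KO cells it was -0.12 (SE 0.054, adjusted p = 0.0529), a value that 7 of 14 alternatives left uncalled. The interaction did not pass the threshold, at -0.06 (SE 0.075, adjusted p = 0.576) at 6 h and -0.15 (SE 0.067, adjusted p = 0.0536) at 24 h, where 15 of 20 alternatives left it uncalled. Chaf1a, on the opposite strand, moved the other way at 24 h, with a log2 fold change of -0.33 (adjusted p = 3.59e-06) in WT and -0.41 (adjusted p = 2.76e-08) in Nrf1-KO cells, and its part in the Ubxn6 value was not tested.

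Set directly against WT cells, Nrf1-KO cells had less mRNA of the members, and more so in CFZ. In DMSO, 5 of 9 members were lower (Vcp, Nploc4, Nsfl1c, Faf1 and Plaa) and 0 were higher, against 29.1% of all genes lower and 54.7% called in either direction. At 6 h of CFZ, 8 of 9 were lower, against 30.8% of all genes lower and 61.3% called, and at 24 h 9 of 9 were lower, against 36.4% and 72.0%. Vcp was at 0.737 times the WT level in DMSO, at 0.344 times at 6 h and at 0.449 times at 24 h. Nploc4 was at 0.774, 0.332 and 0.437 times the WT level in the same order, and Nsfl1c at 0.776, 0.363 and 0.383 times. For these genes the distance between the lines was larger in CFZ than in DMSO, which is the interaction given above. Ufd1l, Ubxn4, Faf2 and Ubxn6 missed the threshold in DMSO, with log2 differences of -0.05 (SE 0.047), -0.06 (SE 0.033), -0.09 (SE 0.039) and -0.01 (SE 0.049). These comparisons use the same libraries as the responses above.

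**Figure D3:**
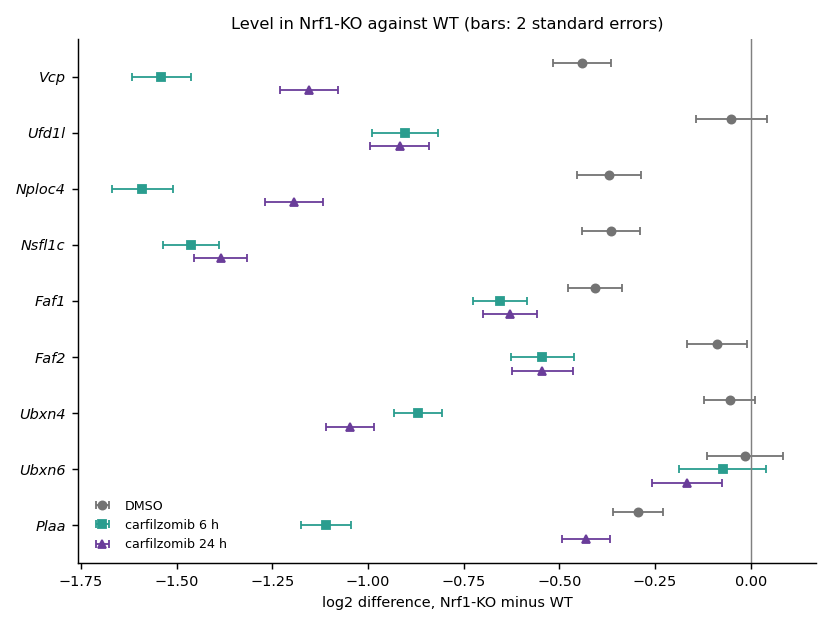
Log2 difference in level between Nrf1-KO and WT cells for each member, in DMSO (grey circles), at 6 h of CFZ (green squares) and at 24 h (purple triangles), with bars of 2 standard errors from the fit to 3 libraries per group. The values in DMSO lie between -0.44 (Vcp) and -0.01 (Ubxn6), and those at 6 h reach -1.59 (Nploc4).

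The course between 6 h and 24 h differed between the members. In WT cells 3 members were higher at 24 h than at 6 h (Ufd1l, Ubxn6 and Nsfl1c, the last of which DESeq2 and the fit with a replicate block did not call, with adjusted p-values of 0.0724 and 0.0542) and 3 were lower (Plaa, Faf1 and Faf2), where 36.9% of all genes were higher, 35.4% lower and 72.4% called. The shares of the members called in WT cells, in each direction and in either, were thus near those of all genes. In Nrf1-KO cells 6 were higher (Ufd1l, Ubxn6, Nploc4, Vcp, Plaa and Nsfl1c) and 3 were lower (Ubxn4, Faf1 and Faf2), where 38.7% of all genes were higher, 38.3% lower and 77.0% called. A test of whether this later change differed between the lines was added after these values had been seen. It called 4 of 9 members, against 43.0% of all genes in either direction (20.7% higher and 22.2% lower), so the share of the members was near that of all genes. The later change was more positive in Nrf1-KO cells for Plaa (0.68, SE 0.045, adjusted p = 1.44e-13), Nploc4 (0.40, SE 0.054, adjusted p = 4.88e-07) and Vcp (0.38, SE 0.054, adjusted p = 6.42e-07), and more negative for Ubxn4 (-0.18, SE 0.044, adjusted p = 0.00159). Vcp thus rose by 0.36 on the log2 scale (SE 0.039) between 6 h and 24 h in Nrf1-KO cells, where its WT value was -0.02 (SE 0.037).

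The mRNA of p97 was set against that of its cofactors by dividing levels per kilobase of exon (RPKM) within each library. These ratios are descriptions without a test, and their absolute size depends on which exons are counted as the length of a gene. Vcp per Nploc4 was 4.24 ± 0.0417 (SD, n = 3) for WT cells given DMSO, 2.54 ± 0.0334 after 6 h and 2.38 ± 0.0609 after 24 h. In Nrf1-KO cells it was 4.06 ± 0.393, 2.62 ± 0.158 and 2.44 ± 0.0436. The lines overlapped in this ratio in DMSO, at 6 h and at 24 h, while the levels of both genes were far apart in CFZ. Vcp per Ufd1l was 8.88 ± 0.393, 7.32 ± 0.248 and 4.47 ± 0.171 in WT cells and 6.79 ± 0.46, 4.69 ± 0.27 and 3.81 ± 0.415 in Nrf1-KO cells, lowest at 24 h in both lines. Vcp per Faf2 moved apart, at 10.9 ± 0.112, 17.1 ± 0.477 and 19.8 ± 1.2 in WT cells and 8.59 ± 0.702, 8.56 ± 0.56 and 12.9 ± 0.804 in Nrf1-KO cells. Per kilobase, Vcp had the highest level of the 9 members in each group, with 38.3% ± 0.212 of their summed RPKM in WT cells in DMSO and 28.3% ± 1.02 in Nrf1-KO cells at 6 h, the highest and the lowest share of the 6 groups.

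**Figure D4:**
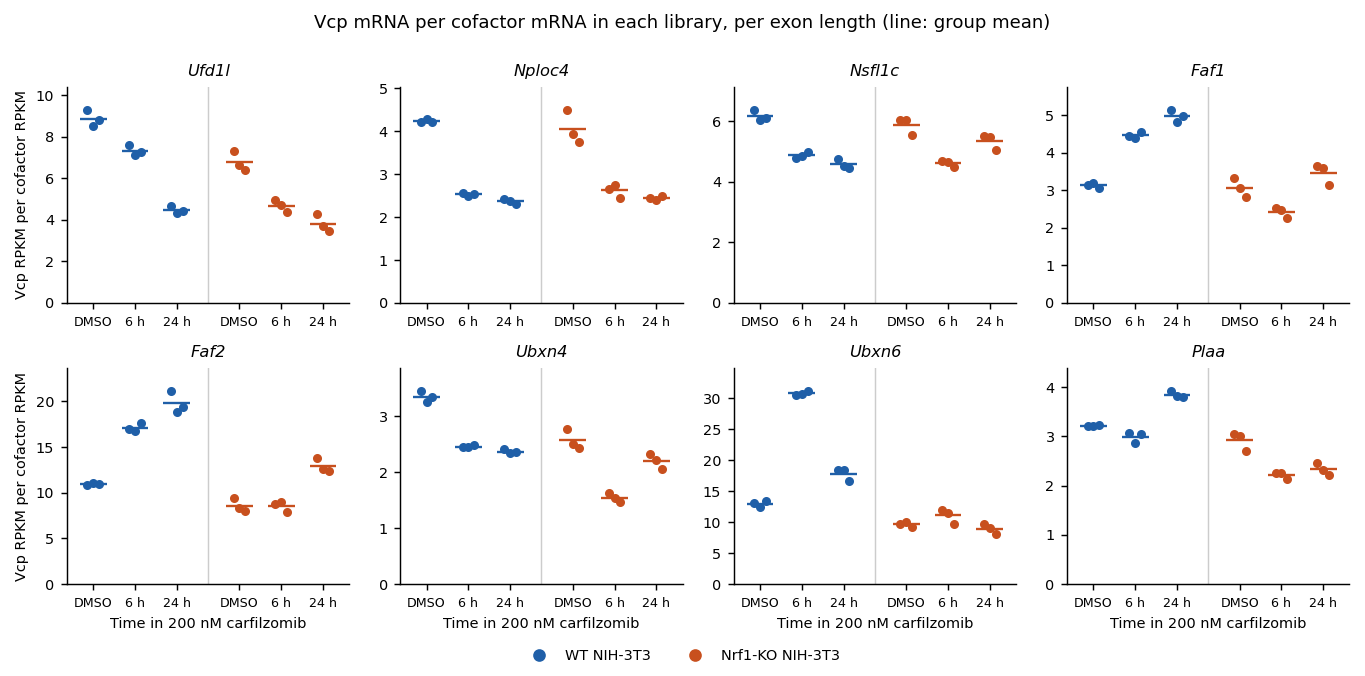
Ratio of Vcp to each cofactor in each of the 18 libraries, both as RPKM over the exons of the gene, by time in 200 nM CFZ, with WT in blue on the left of each panel, Nrf1-KO in orange on the right, 1 point per library and a line at the mean of each group of 3. Vcp per Nploc4 goes from means of 4.24 and 4.06 in DMSO to 2.38 and 2.44 at 24 h in WT and Nrf1-KO cells, and Vcp per Ubxn6 reaches 30.8 in WT cells at 6 h against 11.1 in Nrf1-KO cells.

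Over the 18 libraries, the genes whose log2 CPM was most like that of Vcp were Fam219a (Pearson's r = 0.9931), Psmd3 (0.9916), Psma7 (0.9912), Secisbp2 (0.9902) and Psmd1 (0.9898), out of 10259 genes whose mean count was 50 or more. Psmd3 and Psmd1 encode subunits of the 19S regulatory particle and Psma7 one of the 20S core of the proteasome. These coefficients describe 6 groups of 3 libraries that share the treatment and the line, and they carry no test. Of the 100 genes most like Vcp, 26 were among the 33 subunits of the 20S core and the 19S particle. Of the other members, Nsfl1c was nearest (0.9809, at rank 15), followed by Nploc4 (0.9445, rank 107), Faf1 (0.9246, rank 186) and Plaa (0.9187, rank 209), and Ubxn6 was farthest (0.4017, rank 3114).

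The proteasome subunits, whose genes Nrf1 is known to induce, had a larger median difference between the lines than the members. At 6 h the interaction was called lower for 32 of 33 subunits with a median of -1.14, and at 24 h for 33 of 33 with a median of -1.11, against medians of -0.81 and -0.72 for the members. Of all genes, 18.4% were called lower at 6 h and 30.0% at 24 h. In Nrf1-KO cells at 6 h the median response of the subunits was 0.02 and that of the members was 0.43. There 13 of 33 subunits were higher and 6 lower, against 34.5% of all genes higher and 35.0% lower. The WT medians at 6 h were 1.20 for the subunits and 1.29 for the members. The difference between these lists was not tested.

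Other proteins that bind p97 were mixed in direction. Of 25 further partners, 22 passed the filter on low counts, and Ubxn10, Derl3 and Svip did not. In WT cells at 24 h 15 of 22 rose and 6 fell, with a median of 0.29 on the log2 scale, against 43.2% of all genes higher and 40.5% lower. In Nrf1-KO cells 10 rose and 6 fell, with a median of 0.05, against 44.4% higher and 41.1% lower. The interaction at 24 h was called lower for 8 of 22 and higher for 5, with a median of -0.05, against 30.0% of all genes lower and 29.7% higher. At 6 h it was lower for 7 and higher for 4, with a median of -0.07, against 18.4% and 19.8%. At 24 h the share of the partners called was near that of all genes (59.8%). By role, at 24 h it was lower for 3 of 7 other UBX proteins and for 3 of 5 enzymes that act on ubiquitin chains or glycans, with 0 higher in either, and it was higher for 3 of 6 ER membrane partners, with 0 lower, counts too small to set against the all-gene shares.

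The partners with the most negative interactions at 24 h were Ngly1, Mettl21d and Ube4b. Ngly1, which removes glycans from proteins pulled out of the ER, was at 29.86 ± 1.22 CPM (SD, n = 3) in WT cells in DMSO and 15.76 ± 1.75 at 24 h, and at 23.05 ± 0.516 and 6.053 ± 1.65 in Nrf1-KO cells. It fell in both lines and further without Nrf1, with an interaction of -1.05 (SE 0.15, adjusted p = 2.43e-07). Mettl21d (now Vcpkmt), which methylates p97, had an interaction of -0.82 (SE 0.14, adjusted p = 8.84e-06), with a log2 fold change at 24 h of 0.20 (adjusted p = 0.0489) in WT and -0.62 (adjusted p = 2.59e-06) in Nrf1-KO cells. Ube4b, a ligase that extends ubiquitin chains, had an interaction of -0.53 (SE 0.063, adjusted p = 1.34e-08). Ube4b rose in WT cells at 24 h from 156.9 ± 2.11 to 226.7 ± 1.97 CPM and was at 133.1 ± 8.65 and 133.2 ± 9.48 CPM in Nrf1-KO cells. The most positive were Zfand1 (0.46, SE 0.16, adjusted p = 0.0125) and Zfand2b (0.36, SE 0.12, adjusted p = 0.00872), zinc-finger proteins that bind p97, and Derl1 (0.34, SE 0.048, adjusted p = 4.39e-07), an ER membrane protein of the retrotranslocation complex. Zfand1 and Zfand2b fell in both lines at 24 h, and by less in Nrf1-KO cells. Zfand1 went from 13.67 ± 1.39 to 5.989 ± 1.1 CPM in WT and from 12.44 ± 1.17 to 7.745 ± 0.406 in Nrf1-KO cells, and Zfand2b from 26.44 ± 0.615 to 13.57 ± 1.51 and from 21.96 ± 0.724 to 14.66 ± 0.719. By contrast, Derl1 rose from 147.4 ± 0.731 to 184.8 ± 5.24 CPM in WT cells and from 157.9 ± 1.81 to 249.5 ± 3.09 CPM in Nrf1-KO cells, the opposite order to Vcp.

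**Figure D5:**
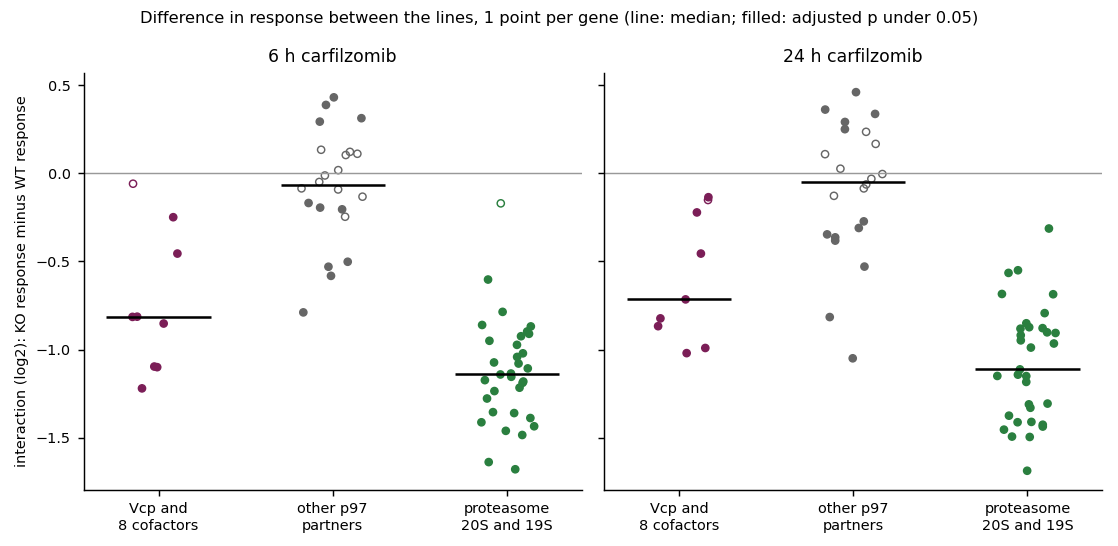
Interaction of line and CFZ (Nrf1-KO response minus WT response, log2) at 6 h (left) and 24 h (right), 1 point per gene, filled where the adjusted p was under 0.05, with a line at the median of each list. The members have medians of -0.81 and -0.72, the 22 other partners of -0.07 and -0.05 and the 33 proteasome subunits of -1.14 and -1.11.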

How the data were processed

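RNA was extracted from WT and Nrf1-KO NIH-3T3 cells, 3 replicates in each of 6 groups. According to their methods, the authors prepared mRNA libraries with a stranded kit, read them from both ends and processed them with RNA Express, which aligns with STAR and tests with DESeq2. The submitters' processing notes name the same tools. Versions, genome build, annotation and use of strand are not given in the sources used here. The authors deposited raw read counts per gene symbol, without normalization. Each library's group and replicate number was read from its label.

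These counts were analysed in edgeR 4.0.16 (R 4.3.3). Genes were filtered with filterByExpr at a minimum count of 10 and a total of 15, scaled by TMM and fitted in 1 quasi-likelihood model of the 6 groups, with Benjamini-Hochberg adjustment over 11762 genes and a threshold of 0.05 without a minimum fold change. All p-values given are from this model unless DESeq2 (1.42.0), another alternative or a library left out is named with them. Fold changes are on the log2 scale, and the standard error was taken as the absolute value over the root of the F statistic. Levels are CPM with TMM scaling, except those of the cell type markers, which are CPM by library size alone. RPKM is that level per kilobase of the union of a gene's exons. Likeness to Vcp is Pearson's r of log2(CPM + 0.5). With a biological coefficient of variation of 3.131% in common over genes, even small differences were called, and standard errors cover the spread between cultures of single lines only. The chi-square per degree of freedom between replicates ran from 1.438 to 8.469, so none was counted as a repeat of another. The fit was also run on simulated counts with 200 genes changed in Nrf1-KO cells at 24 h, and the outcome is not given here.

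The genes named were the 9 members, Nfe2l1, the other partners with the 3 highest and the 3 lowest interactions at 24 h among those past the threshold, and the 5 genes most like Vcp. Overlapping genes were named for the counting. The list of member symbols and the other lists were drawn up with earlier results of these data known. Alternatives were DESeq2, other scalings (RLE, upper quartile, library size alone), no filter or a mean count of at least 10, a fit of only the groups compared, a block for replicate number and each library left out in turn.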

Additional observations from a re-analysis of the deposited data

Results flagged for a closer look

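For 8 of 9 members at each time, WT and Nrf1-KO cells differed in how far the mRNA changed in CFZ, by the test of the interaction in edgeR (Nrf1-KO response minus WT response, log2), where 38.3% of all genes were called at 6 h and 59.8% at 24 h. At 6 h the difference was -1.22 for Nploc4, -1.10 for Vcp, -1.10 for Nsfl1c, -0.85 for Ufd1l, -0.81 for Ubxn4, -0.81 for Plaa, -0.46 for Faf2 and -0.25 for Faf1. At 24 h it was -1.02 for Nsfl1c, -0.99 for Ubxn4, -0.87 for Ufd1l, -0.82 for Nploc4, -0.72 for Vcp, -0.46 for Faf2, -0.22 for Faf1 and -0.14 for Plaa.

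The change from 6 h to 24 h differed between the lines for 4 members, in the comparison added after the values had been seen, a share near the 43.0% of all genes called. It was more positive in Nrf1-KO cells by 0.68 for Plaa, 0.40 for Nploc4 and 0.38 for Vcp, and more negative for Ubxn4 (-0.18). Plaa was the member that fell in WT cells and rose in Nrf1-KO cells over this time. Groups of 3 libraries are too small for a check of single outlying libraries.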

How the results depend on the processing

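The count of members called stayed within 1.5 times its value in all 12 comparisons under each of 14 to 20 alternatives. That bound takes no account of direction, and with 9 members in all most counts could not have risen past it. Of 103 member values, 92 kept their direction and their side of the threshold under all of their alternatives. For the added comparison, only the members it called were among these values. With 3 replicates, leaving out 1 library at a time gave 5 to 6 members in WT cells at 24 h against 6 h, 6 to 8 in Nrf1-KO cells at 6 h and 8 to 9 in the interaction at 24 h, and the same count in the other comparisons. The rise of Vcp in Nrf1-KO cells at 6 h was 0.05 to 0.13 on the log2 scale without single libraries and turned to -0.021 with library size alone, as did Faf2 (-0.026). The call for Vcp was lost without Nrf1-KO DMSO replicate 2 or 3 or 6 h replicate 1 or 2 (adjusted p = 0.0998, 0.267, 0.145 and 0.111). The Ubxn6 value at 6 h in Nrf1-KO cells was called lower in 7 of 14 alternatives, among them RLE, upper-quartile and library-size scaling (-0.14, -0.19 and -0.23), and in the interaction at 24 h Ubxn6 was called with library size alone (-0.23) and without WT or Nrf1-KO DMSO replicate 2, WT 24 h replicate 2 or Nrf1-KO 24 h replicate 3 (-0.19 to -0.11 over all libraries left out). Signs changed for values near 0. Vcp between 24 h and 6 h in WT cells was 0.0043 with library size alone, Ubxn4 there ran from -0.015 to 0.034 without single libraries, and Ubxn6 between the lines in DMSO was 0.033 with library size alone, 0.0037 with the compared groups only and -0.043 to 0.013 without single libraries. The cause was not tested.

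Scaling by library size alone moved the median of all genes by -0.132 in WT cells and -0.112 in Nrf1-KO cells at 6 h and by -0.103 and -0.182 at 24 h, and upper-quartile scaling by -0.109 in WT cells at 6 h, -0.135 in WT and -0.108 in Nrf1-KO cells at 24 h. Under library size alone the share of calls that were higher went from 49.6% to 35.4% in WT cells at 6 h, from 49.7% to 36.4% in Nrf1-KO cells at 6 h, from 52% to 41.6% at 24 h, from 46.9% to 57.7% between the lines in DMSO and from 49.8% to 60.8% at 6 h, and from 48.2% to 30.1% in the added comparison. Over all genes, the deviations of same-numbered replicates were close to uncorrelated (mean correlation 0.0136, -0.0494 to 0.0972 over 45 pairs). A correlation over all genes cannot settle whether the numbers pair samples, and the sources used here do not say. With the replicate block more genes were called in each comparison, such as 4650 in place of 4502 in the interaction at 6 h. The replicate block gave 5 members in place of 6 in WT cells at 24 h against 6 h (Nsfl1c lost, 0.07 and adjusted p = 0.0542) and left the call and direction of 102 of 103 member values.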
